A study of Homo sapiens with 6 samples.

Results

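The genes described here are the terminal nucleotidyltransferases and poly(A) polymerases of human embryonic kidney cells, the enzymes that add nucleotides to RNA 3′ ends without a template. They were taken by gene symbol as TUT4, TUT7, TUT1, TENT2, TENT4A, TENT4B, TENT5A, MTPAP, PAPOLA and PAPOLG, 10 of the 30270 genes in the deposited count table. All 10 passed the filter on low counts, which required a largest estimated count above 12. The rule named symbols and used no measured value, though earlier results of these data were known when it was written. The question asked of them was whether the RNA of the related tailing enzymes is at another level where TUT4 and TUT7 are targeted.

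The cells were HEK 293T, a kidney-derived line that carries the SV40 large T antigen, grown without treatment. One group was wild type (WT, 3 libraries) and the other carried a double knockout of TENT3A and TENT3B, further names of TUT4 and TUT7 (labelled ΔTUT4/7, 3 libraries). Total RNA was depleted of ribosomal RNA and sequenced. The WT cells came from a cell bank and the knockout line from another laboratory. The deleted exons, and whether the line was a single clone, are not given in the sources used here. The numbered replicates of a group are repeats of 1 line, so p-values measure the spread between these libraries and do not cover differences between lines. The lines' separate histories and their genotypes cannot be told apart.

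Terminal nucleotidyltransferases differ in the nucleotide they prefer and in the RNA they reach. TUT4 and TUT7 work in the cytoplasm, add uridines to mRNAs with short poly(A) tails and to microRNA precursors, and so mark RNA for degradation. TUT1 uridylates U6 small nuclear RNA, TENT2 adds adenosines to microRNAs and to mRNAs in oocytes and neurons, and TENT4A and TENT4B adenylate nuclear RNA for the exosome or mix other nucleotides into mRNA tails. TENT5A lengthens cytoplasmic poly(A) tails, MTPAP polyadenylates mitochondrial mRNAs, and PAPOLA and PAPOLG are the canonical nuclear poly(A) polymerases.

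Libraries held 18757228 to 33148937 counts, and the biological coefficient of variation was 6.44%. All 7 genes listed as expressed in HEK 293T were detected, from PAX2 at 2.15 CPM to VIM at 496 CPM in WT. Among them 3 were higher and 4 lower in libraries labelled ΔTUT4/7. VIM reached 1250 CPM there, KRT18 rose from 30.5 to 44.3 CPM and ENO2 from 5.26 to 12.2 CPM. NEFL fell from 352 to 105 CPM and KRT8 from 9.96 to 3.43 CPM, and PAX2 and LIN28B were lower too. Keratin and neuronal genes thus went both ways. Over all tested genes 57.7% were called. Among markers of other cell types, PTPRC and HBB were not among the 30270 genes with counts, and ALB and PECAM1 had too few counts to be tested. The cardiac myosin gene MYH6 was listed at 0 in every WT library and averaged 0.286 CPM in the other group, and the collagen gene COL1A1 fell from 20.4 to 7.45 CPM. The part of these differences in the results on tailing enzymes was not tested. In bulk RNA, fewer cells with a transcript and less transcript per cell cannot be told apart.

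Promoters of 3 enzymes are printed because they head the genes with the largest change in each direction for which a sequence was at hand: TUT7, the targeted enzyme whose RNA was lower, and MTPAP and TENT4B, the untargeted enzymes whose RNA was raised most. Each runs 5′ to 3′ from 250 bases before to 50 bases after a RefSeq transcript start on GRCh38.p14. Capitals mark GGGCGG, the core of the Sp1 site, or CCGGAAG, the core of many ETS factor sites, on either strand.
TUT7, chr9:86354361-86354660, minus strand: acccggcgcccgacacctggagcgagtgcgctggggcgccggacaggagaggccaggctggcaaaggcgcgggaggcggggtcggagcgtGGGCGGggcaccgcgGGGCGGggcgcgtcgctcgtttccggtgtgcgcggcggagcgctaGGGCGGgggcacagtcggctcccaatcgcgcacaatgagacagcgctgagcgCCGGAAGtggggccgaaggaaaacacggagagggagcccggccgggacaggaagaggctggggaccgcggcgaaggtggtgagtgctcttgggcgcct
TENT4B, chr16:50152661-50152960, plus strand: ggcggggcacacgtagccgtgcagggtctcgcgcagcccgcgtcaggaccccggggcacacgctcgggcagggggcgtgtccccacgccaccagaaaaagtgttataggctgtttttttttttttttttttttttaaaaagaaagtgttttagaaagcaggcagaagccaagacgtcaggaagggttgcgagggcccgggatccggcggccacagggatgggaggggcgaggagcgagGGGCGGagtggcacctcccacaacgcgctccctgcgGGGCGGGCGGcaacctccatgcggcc
MTPAP, chr10:30349229-30349528, minus strand: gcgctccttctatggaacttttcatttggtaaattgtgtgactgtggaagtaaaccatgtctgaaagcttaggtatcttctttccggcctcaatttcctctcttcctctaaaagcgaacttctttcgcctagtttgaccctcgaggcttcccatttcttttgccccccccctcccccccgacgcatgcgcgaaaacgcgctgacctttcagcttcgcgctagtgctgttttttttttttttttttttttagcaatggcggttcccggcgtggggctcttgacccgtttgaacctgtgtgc
TUT7 held GGGCGG 3 times, CCGGAAG 1 time and 40 CpG dinucleotides. The TENT4B window held GGGCGG 3 times, with 2 of the copies overlapping, and 26 CpG, and a second RefSeq start of TENT4B, chr16:50153056-50153355, had 6 copies and 50 CpG. Neither motif occurred in the MTPAP window, which had 17 CpG. Over 35093 RefSeq promoter windows of the same length, 44.9% held GGGCGG and 10.3% held CCGGAAG on either strand, and the median was 14 CpG. The MTPAP window lies inside the counted locus, chr10:30309801-30374448 on the minus strand. The 5′ end of that locus was not searched. A match is a run of letters and not a measured binding site, and the lack of one says only that the letters are not in this window.

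The targeted enzymes moved in opposite directions. TUT4 (chr1:52408282-52553487 of hg38, minus strand) read 212, 216 and 206 CPM in WT replicates 1, 2 and 3, where CPM is counts per 1000000 of the scaled library size. The libraries labelled ΔTUT4/7 read 882, 920 and 917 CPM. Every one of the latter lay above every WT library, and the mean was 4.29 times the WT mean of 211 ± 5.08 CPM (SD, n = 3). On the log2 scale the difference was 2.10 ± 0.04 (SE, 95% interval 2.01 to 2.19, edgeR quasi-likelihood adjusted p = 7.89e-19). This was larger in size than the change of 97.3% of genes averaging at least 50 counts over the 6 libraries, and number 6 in the order of adjusted p over 23952 genes. At 2-fold or more, 5.90% of tested genes were called higher and 12.4% lower. The TUT4 count therefore goes against what its group's label would lead one to look for, and directions below refer to the libraries as labelled. A gene count sums all exons, so it neither shows a deletion inside the gene nor says whether the RNA can be translated.

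TUT7 (chr9:86287733-86354454, minus strand) read 60.4, 62.6 and 64.8 CPM in WT and 27.2, 25.2 and 26.5 CPM in the libraries labelled ΔTUT4/7. The groups did not overlap, and the lower group kept 42.0% of the WT level. The log2 difference was -1.25 ± 0.06 (SE, 95% interval -1.38 to -1.12, edgeR adjusted p = 2.20e-13). Counts of TUT4 for each count of TUT7 ran from 3.18 to 3.51 in WT and from 32.4 to 36.6 in the other group. An exact two-sided permutation test of that ratio gave p = 0.1, the smallest value 3 libraries against 3 allow. Because each gene alone separated the groups, in opposite directions, the test could give no other value.

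Part of TUT4 lies under another gene. PRPF38A, a splicing factor gene on the opposite strand, shares 12555 bases, or 8.65%, of the TUT4 locus, and the sources used here do not say whether counting used the strand. PRPF38A read 125 ± 1.31 CPM in WT and 168 ± 4.76 CPM in libraries labelled ΔTUT4/7 (SD, n = 3). The TUT4 mean was higher by 695 CPM. The part of reads from PRPF38A in the TUT4 count was not tested.

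**Figure D1:**
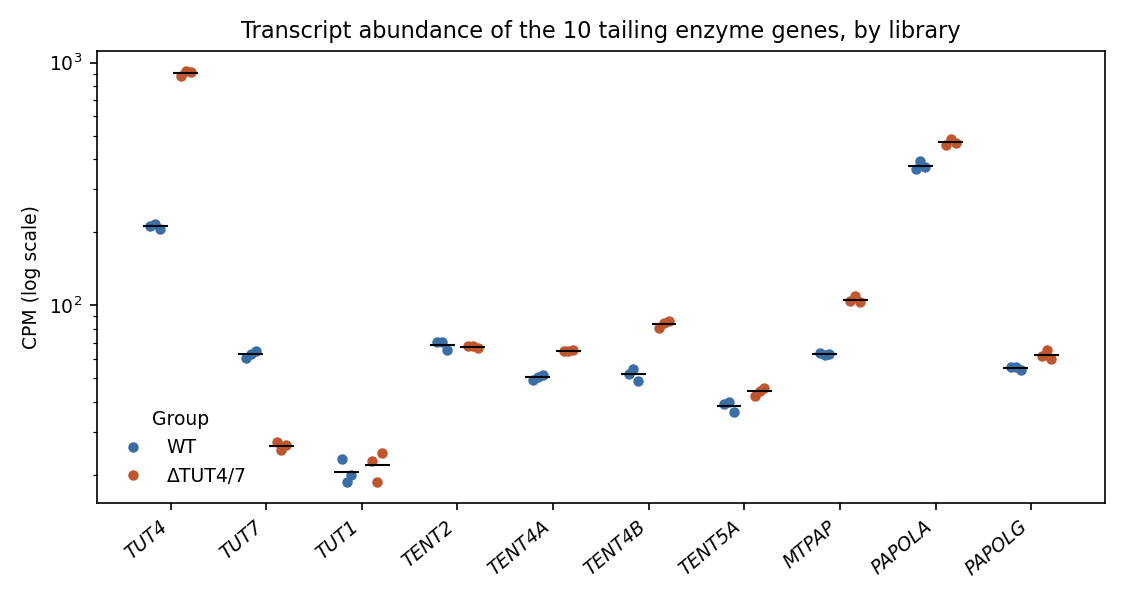
Level of each of the 10 tailing enzymes in every library, in CPM on a log axis, with 1 point per library and a bar at each group's mean. TUT4 stands at 882 to 920 CPM in the libraries labelled ΔTUT4/7 against 206 to 216 CPM in WT, TUT7 is lower, and TUT1 and TENT2 overlap between the groups.

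Of the 8 enzymes that were not targeted, 6 were higher in libraries labelled ΔTUT4/7, none was lower and 2 did not pass the test at an adjusted p under 0.05. None changed 2-fold. Many genes differed between these lines: 57.7% of all tested genes were called, 28.6% higher and 29.0% lower. Among the 15575 genes averaging at least 50 counts, a class that holds all 10 enzymes, 70.9% were called, 39.2% higher and 31.7% lower. The 8 enzymes had a median log2 difference of 0.26, beside 0.06 over that class and -0.02 for every gene tested. No library of one group fell within the range of the other for 8 of all 10 enzymes, 7 higher and 1 lower. The same held for 62.7% of tested genes (30.9% higher and 31.8% lower) and for 74.1% of that class. Scaling by library size alone moves the median of the class to -0.05, and with it called 4 of the 8 as higher and 1, TENT2, as lower.

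MTPAP, the mitochondrial poly(A) polymerase (chr10:30309801-30374448, minus strand), had the largest fitted value of the 8, with an interval that overlapped that of TENT4B. Without WT replicate 2 the order turned, to 0.733 for TENT4B and 0.729 for MTPAP on the log2 scale. It read 63.7, 62.3 and 62.8 CPM in WT and 104, 109 and 103 CPM in the libraries labelled ΔTUT4/7, with no overlap. The mean was 1.67 times that of WT, a log2 difference of 0.74 ± 0.05 (SE, 95% interval 0.64 to 0.84, edgeR adjusted p = 3.54e-11). Less the median of the class it was 0.68.

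Both nuclear enzymes of the TENT4 pair were higher. TENT4B, also known as PAPD5 and the adenylating subunit of TRAMP-like complexes (chr16:50152911-50235310, plus strand), read 52.0, 54.7 and 48.4 CPM in WT. It read 80.4, 84.7 and 85.8 CPM in the libraries labelled ΔTUT4/7, and the groups did not overlap. Its log2 difference was 0.69 ± 0.06 (SE, 95% interval 0.57 to 0.81, edgeR adjusted p = 9.10e-10), or 1.62-fold. TENT4A, its paralog PAPD7 (chr5:6713432-6757044, plus strand), read 49.1, 50.3 and 51.7 CPM in WT and 64.7, 64.6 and 65.1 CPM in the other group. That was a log2 difference of 0.36 ± 0.05 (SE, 95% interval 0.25 to 0.47, edgeR adjusted p = 4.68e-06), or 1.29-fold. Counts of TENT4B for each count of TENT4A were 1.03 ± 0.0804 in WT and 1.29 ± 0.0423 in libraries labelled ΔTUT4/7 (SD, n = 3), without overlap (exact two-sided permutation p = 0.1, the smallest possible).

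Both canonical nuclear polymerases were higher. PAPOLA, the main polymerase of mRNA 3′ end formation (chromosome 14), was the most abundant untargeted member, at 364, 394 and 370 CPM in WT and 459, 486 and 465 CPM in the libraries labelled ΔTUT4/7. Its log2 difference was 0.32 ± 0.04 (SE, edgeR adjusted p = 2.25e-06), or 1.25-fold. PAPOLG, its related nuclear polymerase (chr2:60756253-60802086, plus strand), read 55.3, 55.6 and 54.1 CPM in WT and 61.7, 65.0 and 60.0 CPM in the other group, a log2 difference of 0.18 ± 0.05 (SE, edgeR adjusted p = 0.00811). In both genes the groups were separate. The ratio of PAPOLA to PAPOLG counts ran from 6.59 to 7.08 in WT and from 7.44 to 7.76 in libraries labelled ΔTUT4/7.

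TENT5A, a cytoplasmic poly(A) polymerase of secretory mRNAs (chr6:81491439-81752774, minus strand), had a small difference. It read 38.9, 39.7 and 36.1 CPM in WT and 42.3, 44.3 and 45.7 CPM in the libraries labelled ΔTUT4/7, a log2 difference of 0.21 ± 0.06 (SE, edgeR adjusted p = 0.00800). The calls of TENT5A and PAPOLG were both lost under library size alone and upper-quartile scaling (edgeR adjusted p from 0.166 to 0.356). TENT5A also lost its call without WT replicate 3, at an edgeR adjusted p of 0.0532.

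TUT1 and TENT2, the remaining members, did not pass the test. TUT1 (chr11:62575045-62591637, minus strand) read 23.1, 18.6 and 20.0 CPM in WT and 22.7, 18.7 and 24.5 CPM in the other group. Its libraries overlapped, and the log2 difference of 0.10 ± 0.10 had a 95% interval of -0.11 to 0.31 (edgeR adjusted p = 0.405). Its counts are uncertain because a readthrough gene, AP002990.1, covers the same exons and read 9.72 CPM in WT and 10.8 CPM in libraries labelled ΔTUT4/7. TENT2, the GLD2 enzyme (chromosome 5), read 70.3, 70.1 and 65.4 CPM in WT and 67.9, 67.9 and 66.5 CPM in the other group. Those libraries overlapped too, and the log2 difference of -0.02 ± 0.05 had a 95% interval of -0.13 to 0.09 (edgeR adjusted p = 0.724). The intervals leave room for changes within those bounds.

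**Figure D2:**
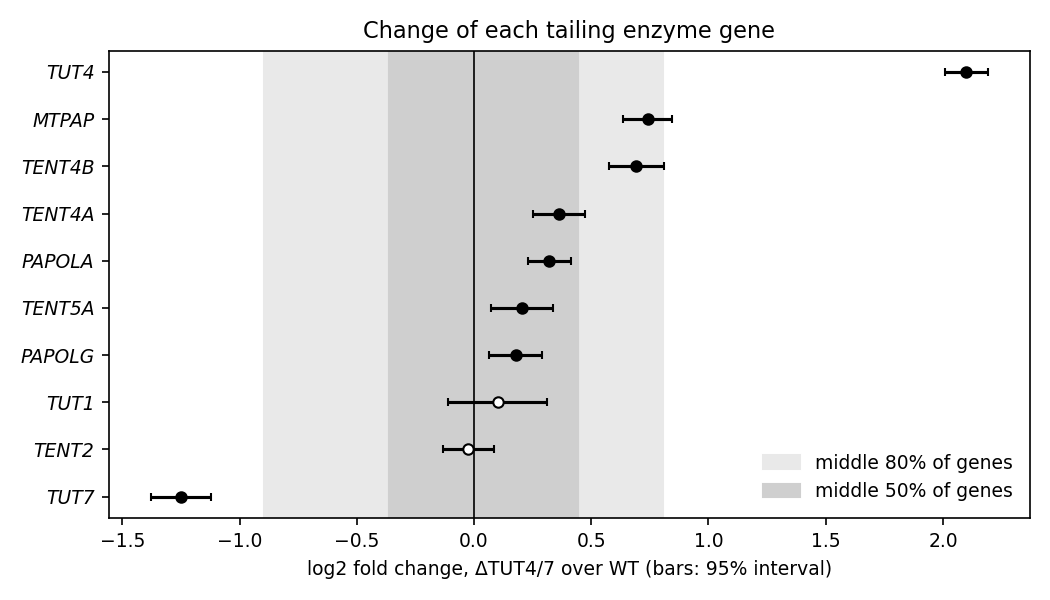
Log2 fold change of each of the 10 enzymes, ΔTUT4/7 over WT as labelled, with its 95% interval as a bar, filled points for called genes and open ones for the rest, over grey bands that hold the middle 80% and 50% of genes averaging at least 50 counts. TUT4 at 2.10 and TUT7 at -1.25 lie outside both bands, and the untargeted enzymes lie between -0.02 for TENT2 and 0.74 for MTPAP.

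Levels of different genes were compared per kilobase of merged exon. In WT the order was led by PAPOLA at 27.6 ± 1.15 CPM per kb, followed by TUT4 at 13.1 ± 0.314, TENT2 at 9.80 ± 0.392 and TUT7 at 9.34 ± 0.323 (SD, n = 3). TENT4A, MTPAP, PAPOLG, TENT5A, TENT4B and TUT1 followed, from 7.92 down to 5.80 CPM per kb. Libraries of TENT2 and TUT7 overlapped, as did those of PAPOLG and TENT5A, TENT5A and TENT4B, and TENT4B and TUT1. In libraries labelled ΔTUT4/7 TUT4 came first at 55.9 ± 1.32 CPM per kb, above PAPOLA at 34.5 ± 1.05, and TUT7 came last at 3.92. MTPAP followed PAPOLA at 12.6 CPM per kb. There, neighbours that overlapped were TENT4B and TENT2, and PAPOLG and TENT5A. With the longest transcript as the length, PAPOLA still led in WT and TUT4 in the other group, while in WT MTPAP at 11.3 CPM per kb moved above TUT7 at 10.9 and TENT4B became the lowest at 6.13. On that scale the WT libraries of MTPAP and TUT7 overlapped, as did those of TENT4B and TENT5A, the next above it.

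Summed per kb, the 8 untargeted enzymes came to 77.5 ± 1.63 CPM per kb in WT and 97.5 ± 1.38 in libraries labelled ΔTUT4/7 (SD, n = 3), a ratio of 1.26 with no overlap. TUT4 and TUT7 together came to 22.4 ± 0.295 and 59.9 ± 1.20, a ratio of 2.67. TUT4 alone was 13.1% of the sum over all 10 enzymes in WT and 35.5% in the other group. With the longest transcript as the length these shares were 18.7% and 45.2%.

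**Figure D3:**
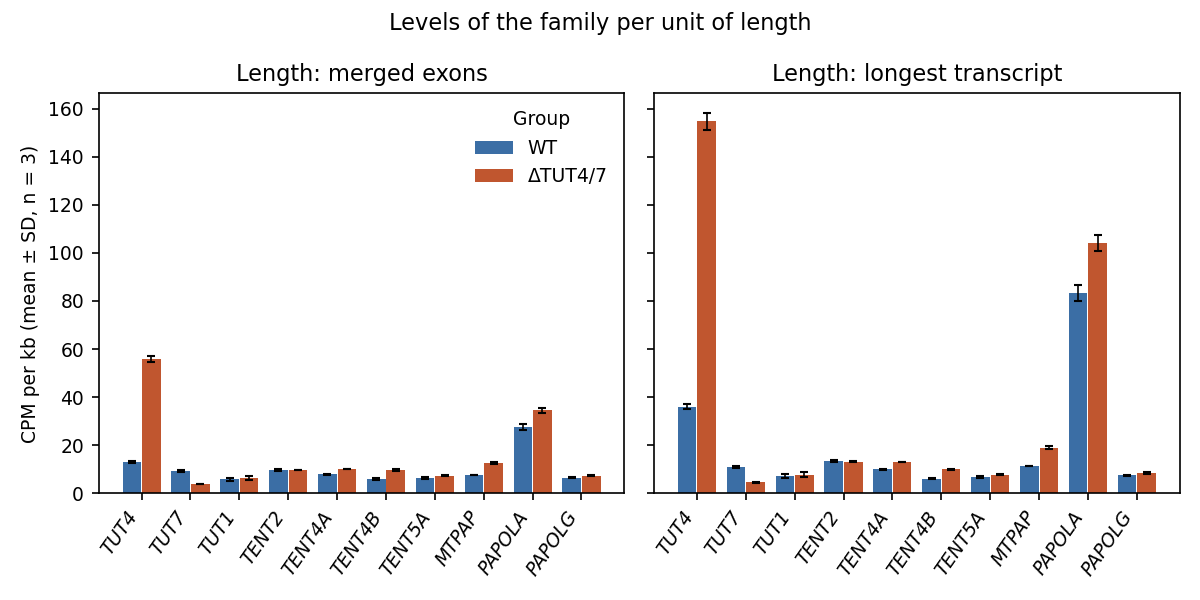
Level of each enzyme per kilobase, in CPM per kb, with bars at the mean over 3 libraries and SD as the error, by group, with merged exons as the length on the left and the longest transcript on the right. On the left PAPOLA leads in WT at 27.6 and TUT4 in the libraries labelled ΔTUT4/7 at 55.9, and on the right the same 2 genes lead at 83.3 and 155.

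Genes around each enzyme were examined to see whether the change reached the neighbourhood. Of all genes averaging at least 50 counts, 39.2% were higher and 31.7% lower. Within 1 Mb of TUT4, 25 such genes had a median log2 difference of 0.10, with 9 higher and 4 lower. They ran from -0.59 for RAB3B to 1.16 for LRP8, so none of them moved as far as TUT4. The nearest such genes that do not overlap TUT4, 1 on each side, were ORC1, a subunit of the origin recognition complex, at 0.57 ± 0.05, and COA7, a cytochrome c oxidase assembly factor, at 0.69 ± 0.05 (log2, SE).

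The same shares, 39.2% higher and 31.7% lower, stand beside the counts around TUT7. There, 8 such genes had a median of 0.27, and 6 were higher and 1 lower. That one, the transcript AL513318.1 at -1.77, was below TUT7. The flanking ISCA1, an iron-sulfur cluster assembly gene 4630 bases away, differed by 0.30 ± 0.06 and GAS1, a growth arrest gene, by 1.39 ± 0.08, both opposite in sign to TUT7 (log2, SE). With windows of 0.5 and 2 Mb the medians were 0.13 and 0.13 around TUT4, and 0.25 and 0.27 around TUT7.

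Among the untargeted enzymes, TENT4A had 4 such genes within 1 Mb, which differed widely. MED10, a Mediator subunit, stood at 1.76 and NSUN2, an RNA methyltransferase, at 1.25, while SRD5A1, a steroid reductase, stood at -0.02 and did not pass and UBE2QL1 was lower at -1.87. Their median was 0.62, and that of 8 genes within 2 Mb was 1.14. MTPAP had 8 such neighbours with a median of 0.13, of which 3 lay above its own value and 5 below it. TENT4B had 9 with a median of -0.09, 1 of them above it. Around TUT1, TENT2, TENT5A and PAPOLG the medians were 0.16, 0.07, 0.10 and -0.04. These medians of few genes depended on the window: at 0.5 and 2 Mb they were 0.37 and 0.29 for MTPAP, 0.04 and -0.03 for TENT4B, 0.16 and -0.09 for TENT2, 0.12 and -0.21 for TENT5A, and -0.22 and 0.02 for PAPOLG. No median is given around PAPOLA, because the row of Y_RNA, a repeated small RNA merged under one symbol, spans that locus.

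**Figure D4:**
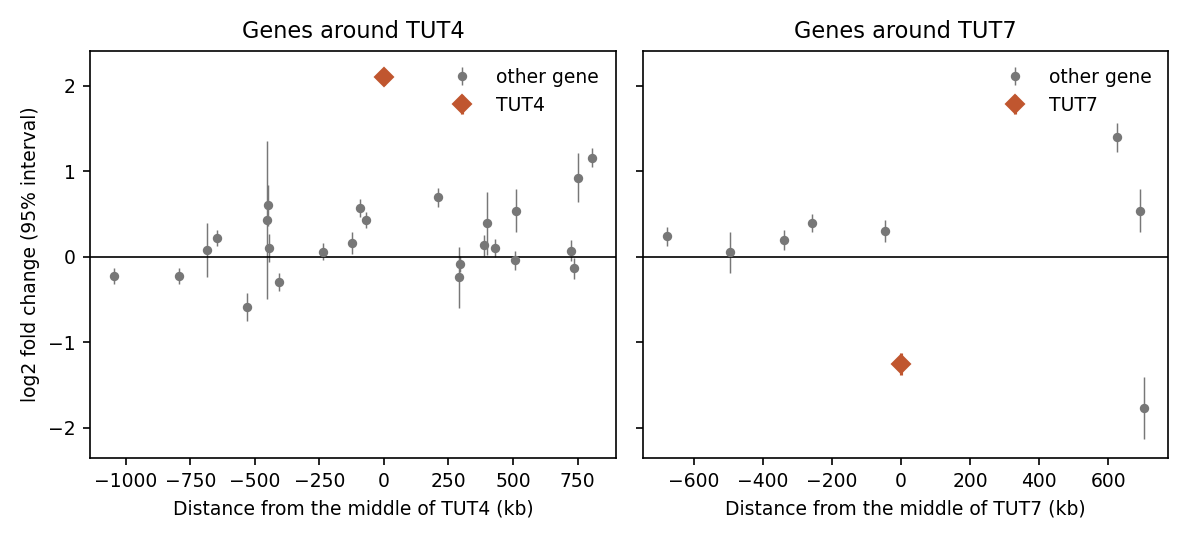
Log2 fold change (ΔTUT4/7 over WT as labelled, bars for the 95% interval) of TUT4, TUT7 and the genes within 1 Mb of each that average at least 50 counts, against the distance in kb between gene middles. The 25 genes around TUT4 lie between -0.59 and 1.16, below TUT4 at 2.10, and 1 gene near TUT7, at -1.77, lies below it.

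The genes whose profile over the 6 libraries was nearest to TUT4 among 15574 candidates were UTP20, of the small ribosomal subunit processome, RYR2, a calcium release channel, and HSPH1, a heat shock protein. Their distances were 0.0854, 0.0938 and 0.130 (Euclidean, on centred log2 CPM), with log2 differences of 2.11, 2.16 and 2.01. For TUT7 they were LRATD2, PTPDC1 and RAB4A, at distances of 0.0987, 0.109 and 0.124 and log2 differences of -1.27, -1.21 and -1.27. With 2 groups of 3 libraries, likeness here is mostly the size of the group difference.

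The pathway around the tailing enzymes was described with 7 lists holding 95 genes, of which 92 were in the table and tested. There 50 were higher, 16 lower and 26 not called, so 71.7% were called, beside 70.9% of all genes averaging at least 50 counts. The lists' median log2 difference was 0.20, beside 0.06 for that class. Scaling by library size alone gave 43 higher and 23 lower.

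Among other tailing enzymes, 2 of 4 tested genes were higher and 1 lower. That is 75.0% called, beside 57.7% of all tested genes. TRNT1, which adds CCA to tRNAs, rose from 22.4 to 38.3 CPM (log2 0.78 ± 0.07, edgeR adjusted p = 9.58e-09). PAPOLB, a testis polymerase with a transcript close to that of PAPOLA, read only 2.14 and 3.26 CPM, and its call (log2 0.58 ± 0.22, edgeR adjusted p = 0.0310) is uncertain. It was lost in 9 of 17 alternatives, among them DESeq2 and the removal of WT replicate 1 or of any library labelled ΔTUT4/7. TENT5C, a cytoplasmic poly(A) polymerase, was lower by a log2 value of -0.42 ± 0.09.

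Of 14 genes for uridylation partners and decay of uridylated RNA, 7 were higher, 3 lower and 4 not called, with a median of 0.09. In the LSM ring, which binds the ends of shortened and uridylated mRNA, 5 of 7 subunits were higher and none lower. LSM3 was higher by 0.66 ± 0.07 on the log2 scale. LSM7 passed narrowly (edgeR adjusted p = 0.0499), and its groups overlapped. Over all genes averaging at least 50 counts, 39.2% were higher. TRIM25, a cofactor of TUT4 on microRNA precursors, was lower, at 49.9 CPM in libraries labelled ΔTUT4/7 (log2 -1.03 ± 0.05, edgeR adjusted p = 1.84e-13). LIN28B, an RNA-binding protein, was lower by -0.20. Its relative LIN28A, which recruits TUT4 to microRNAs, did not pass. LIN28A read only 0.634 CPM in WT and 0.599 CPM in libraries labelled ΔTUT4/7. DIS3L2, the exonuclease that degrades uridylated RNA, stood at -0.04 and did not pass.

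Deadenylation genes split, with 8 higher, 5 lower and 6 not called of 19. The share called, 68.4%, was near the 70.9% of all genes averaging at least 50 counts. Of that class, 39.2% were higher and 31.7% lower. BTG2, which recruits the CCR4-NOT complex, fell from 52.2 to 14.4 CPM (log2 -1.86 ± 0.08, edgeR adjusted p = 2.03e-14). PAN2, the catalytic subunit of PAN2-PAN3, fell from 131 to 50.2 CPM (log2 -1.38 ± 0.05, edgeR adjusted p = 1.58e-15). Of the 10 CCR4-NOT subunits listed, 4 were higher, 3 lower and 3 not called. Of the 4 catalytic ones, CNOT6 and CNOT6L were lower, at -0.18 and -0.56, and 2 did not pass. The groups overlapped for CNOT6.

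Of 20 cleavage and polyadenylation factors, 12 were higher and 2 lower, with a median of 0.24. The share called, 70.0%, was near the 70.9% of all genes averaging at least 50 counts, of which 39.2% were higher. Those with the largest changes were CLP1, a kinase of the cleavage complex, at 0.69 ± 0.09, and CSTF2T, which binds the downstream element, at 0.69 ± 0.06 (log2, SE). Poly(A)-binding proteins had 6 of 10 higher and 1 lower, with LARP4B at 0.77 ± 0.04 and LARP4 at 0.67 ± 0.04. PABPC1, the main cytoplasmic poly(A)-binding protein, stood at 0.01 and did not pass. Of 9 genes of the nuclear exosome and its adaptors, 5 were higher and 1 lower. The largest changes were those of ZCCHC8 at 0.61 ± 0.05 and the exonuclease DIS3 at 0.57 ± 0.04.

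Genes known to work with single enzymes gave 10 higher, 3 lower and 3 not called of 16. Among all genes averaging at least 50 counts, 70.9% were called and 39.2% were higher. The 5 mitochondrial RNA genes tied to MTPAP were all higher, in the same direction as MTPAP. SUPV3L1, the mitochondrial RNA helicase, rose from 42.5 to 91.2 CPM (log2 1.10 ± 0.06, edgeR adjusted p = 4.79e-13) and SLIRP, which with LRPPRC stabilises mitochondrial mRNAs, from 22.5 to 43.2 CPM (log2 0.93 ± 0.16, edgeR adjusted p = 0.00299). PDE12, which removes mitochondrial poly(A), was at 0.81 ± 0.05, the exonuclease PNPT1 at 0.78 ± 0.06 and LRPPRC at 0.35 ± 0.05. Their subgroup was formed from the list after its values were known.

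The list also held QKI and the 4 CPEB proteins, RNA-binding proteins of which QKI and CPEB1 are known to recruit TENT2. QKI fell from 360 CPM in WT to 224 CPM in libraries labelled ΔTUT4/7 (log2 -0.68 ± 0.05), and CPEB1, at -0.18, did not pass. CPEB2 and CPEB4 were each lower by a log2 value of -0.85, and CPEB3 did not pass. Of 4 partners of TENT4A and TENT4B, ZCCHC2, SAMD4A and SAMD4B were higher, at 0.35, 0.35 and 0.25, and ZCCHC14 did not pass. USB1, which trims U6 tails made by TUT1, was at 0.80 ± 0.07, and PIP5K1A, which stimulates TUT1 in the nucleus, at 0.50 ± 0.04 (log2, SE).

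**Figure D5:**
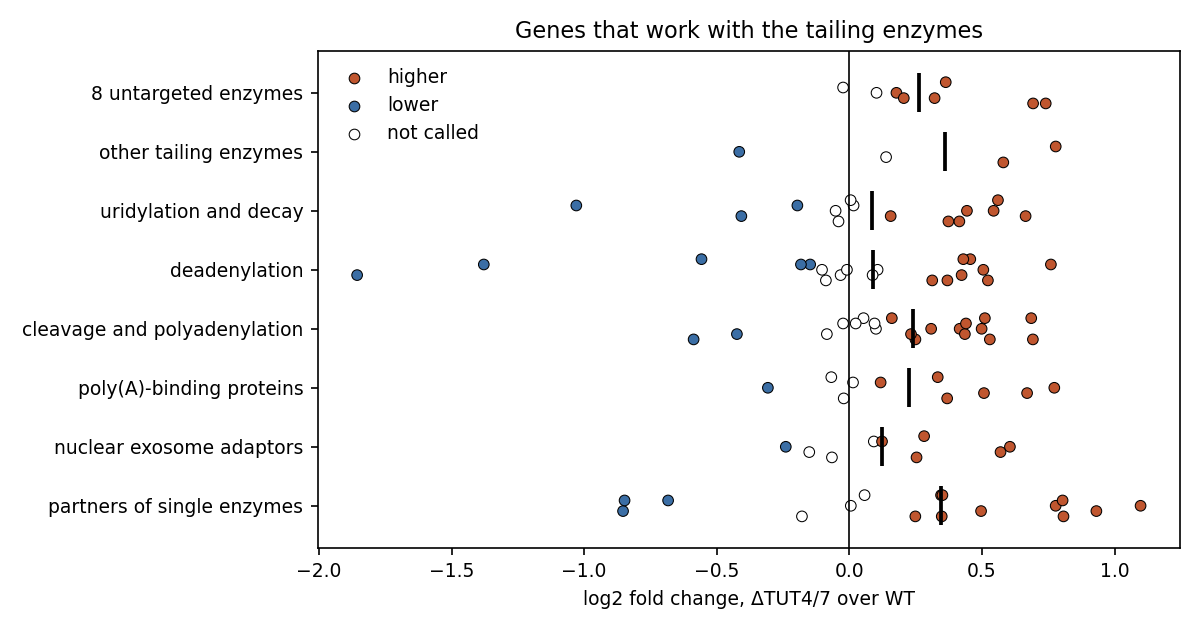
Log2 fold change (ΔTUT4/7 over WT as labelled) of the 8 untargeted enzymes and of each tested gene in the 7 pathway lists, coloured by call, with a vertical bar at each median. List medians lie between 0.09 and 0.36, and the lowest genes are BTG2 at -1.86 and PAN2 at -1.38, both of the deadenylation list.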

How the data were processed

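Paired-end reads of 6 rRNA-depleted libraries were aligned by the authors to hg38 with STAR 2.7.3a, and Ensembl release 102 genes were quantified in Partek 10.0.22. The deposited table holds these estimated counts, in which 45.2% to 50.0% of a library's values were not whole. Reads of overlapping or similar genes are shared by the model, so TUT1 and PAPOLB in particular are uncertain. A deposited table of the authors' own comparison (p-values, FDR, ratios, fold changes and group means) was not used.

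Counts were rounded, genes with a largest count above 12 were kept (23952 of 30270, the rest holding 0.0960% of counts), and TMM-scaled counts were tested in edgeR 4.0.16 (R 4.3.3, robust glmQLFit, glmQLFTest) and p-values were adjusted by Benjamini-Hochberg across them. They are from edgeR unless another tool is named, and genes were called under 0.05. CPM values were computed here on the TMM-scaled library size. Exon lengths came from GENCODE 44 and promoters from RefSeq. On simulated data for 23002 genes in this comparison, 94.5% of 200 changed genes were recovered and 0.101% of unchanged genes were called. These rates were not separated by size of change, and none is given for changes under 2-fold. Recovery of changes as small as those of the 8 untargeted enzymes was not tested. A data set in which as many genes differ as here, where 57.7% were called, was not tested.

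Samples were grouped by title. No pair of libraries agreed within sampling noise. Same-numbered libraries of the groups had deviations correlated at 0.0519, -0.0115 and -0.0222, so the numbers were not treated as pairs. Members and gene lists were chosen with earlier results of these data known. The named genes are the 10 members, the 2 called genes of each list with the largest change among those averaging at least 50 counts, and, for TUT4 and TUT7, the nearest flanking genes and 3 nearest profiles. PAPOLB and TENT5C, the other members of short subgroups, LIN28A, LIN28B, DIS3L2, PABPC1, CNOT6 and CNOT6L were added after their values were seen. So were the partners of TENT2, TENT4A, TENT4B and TUT1, and the other neighbours. Alternatives were other scalings, DESeq2 1.42.0, limma 3.58.1, count filters, a replicate block, a GC and length offset, a 1.5-fold minimum and leaving out each library. One marker of another cell type is not reported here.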

Additional observations from a re-analysis of the deposited data

How the results depend on the processing

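TUT4 and TUT7 kept their direction and call under every alternative run: without each library in turn they ranged from 2.07 to 2.12 and from -1.28 to -1.22 on the log2 scale, and under the other settings from 1.98 to 2.27 and from -1.37 to -1.18. MTPAP and TENT4B also kept theirs, and TENT4A and PAPOLA lost their calls only against a 1.5-fold minimum. TENT5A and PAPOLG lost theirs under library size alone, upper-quartile scaling, log2(CPM + 1), a mean count of 50 or more and the 1.5-fold minimum. Direction reversed for TUT1, at -0.0118 with library size alone and -0.0227 on log2(CPM + 1), and for TENT2, at 0.0647 with the GC and length offset, none of them called. Of the 8 untargeted enzymes, the 1.5-fold minimum called 2 as higher, and library size alone called 4 as higher and 1 as lower. The pathway lists gave 8 higher and 6 lower against that minimum, which asks for a larger change by construction. Upper-quartile scaling gave 43 higher and 22 lower, and log2(CPM + 1) 39 and 20. The log2 ratio of the untargeted enzymes' summed level was 0.33, and 0.22 with library size alone and 0.23 with upper-quartile scaling. Both scalings also move the median of genes averaging at least 50 counts down. Leaving out each library gave 5 to 6 enzymes higher, 0 lower, 45 to 50 list genes higher, 16 to 17 lower and a summed level of 0.32 to 0.35. The replicate block called 13678 genes in place of 13813, with the same 6 untargeted enzymes higher, none lower, and TUT4 at 2.10. The cause of the other changes was not tested. Of 612 values for 36 further named genes, 588 kept direction and call, 24 lost the call and none reversed. With 3 libraries of 1 line in each group, no value covers differences between lines. PAPOLB had a mean count of 66.5 over the 6 libraries, which limits its precision.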
